A study of Mus musculus with 45 samples.

Results

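The liver response to a high-cholesterol diet with simvastatin (HCD+Sim) was compared with the liver of mice on the normal diet (Control), to show which effects of the diet were still present under the statin. The members were chosen by group label alone, the 3 liver arrays of HCD+Sim and the 3 of Control, 6 of the 45 arrays of the series, and all 22080 genes of the table were tested. Each group consisted of 8 male C57BL/6 mice, 7 weeks old, and tissue was taken on day 43. Control mice ate the standard diet, HCD mice the same diet with 0.5% cholesterol, and HCD+Sim mice the cholesterol diet with 0.03 g of simvastatin per 100 g of food. No group received simvastatin on the normal diet, so HCD+Sim differed from Control by cholesterol and drug together. Per the methods, RNA of 4 mice made up pool A, that of the 4 others made up pool B, and both pools were mixed for pool C. The 3 arrays of a group therefore rest on 2 separate pools. The p-values measure spread between arrays within groups, pooled over all 45 arrays of liver, kidney and brain, and not the spread between mice. A gene that varied more in these liver arrays than in the others gets too small an SE.

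Statins block cholesterol synthesis at an early step, the making of mevalonate. When sterols in the hepatocyte run low, the transcription factor SREBP-2 switches on the genes of cholesterol synthesis, and when sterols are plentiful these genes are kept down. Oxysterols made from surplus cholesterol activate the nuclear receptor LXR, whose targets export sterols into bile and raise SREBP-1c, the driver of fatty acid synthesis.

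The arrays carry a label that names brain in 1 field and liver in the others, so the tissue was checked with marker genes. The 14 hepatocyte markers averaged 13 to 13.1 on the log2 scale in the 6 arrays, against 6.46 to 6.63 in the brain Control arrays. The 10 brain markers averaged 6.62 to 6.74, against 11.6 in each brain Control array. The 10 kidney markers averaged 6.03 to 6.29, against 11.2 to 11.3 in the kidney Control arrays. On these markers the 6 arrays were liver. Correlations between arrays of a group lay between 0.9913 and 0.9952. Those between HCD+Sim and Control arrays, at 0.9905 to 0.9937, overlapped this range.

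Some arrays stood apart in genes of other tissues. The 27 measured pancreas acinar markers averaged 6.74 in HCD+Sim pool A, 7.14 in pool B and 5.93 in pool C, and 5.76 to 5.78 in the Control arrays. The 30 squamous epithelium markers averaged 6.50 in Control pool A, 6.70 in pool B and 6.11 in pool C, and 6.00 to 6.16 in the HCD+Sim arrays. In both groups pool C, stated to be a mix of pools A and B, lay outside their range. It lay more than 1 log2 unit below both in 30 genes in HCD+Sim, 11 of them pancreas and 6 muscle markers. In Control it did so in 9 genes, 4 of them squamous markers. Some results are therefore also given with pool C as the only array of its group.

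**Figure D1:**
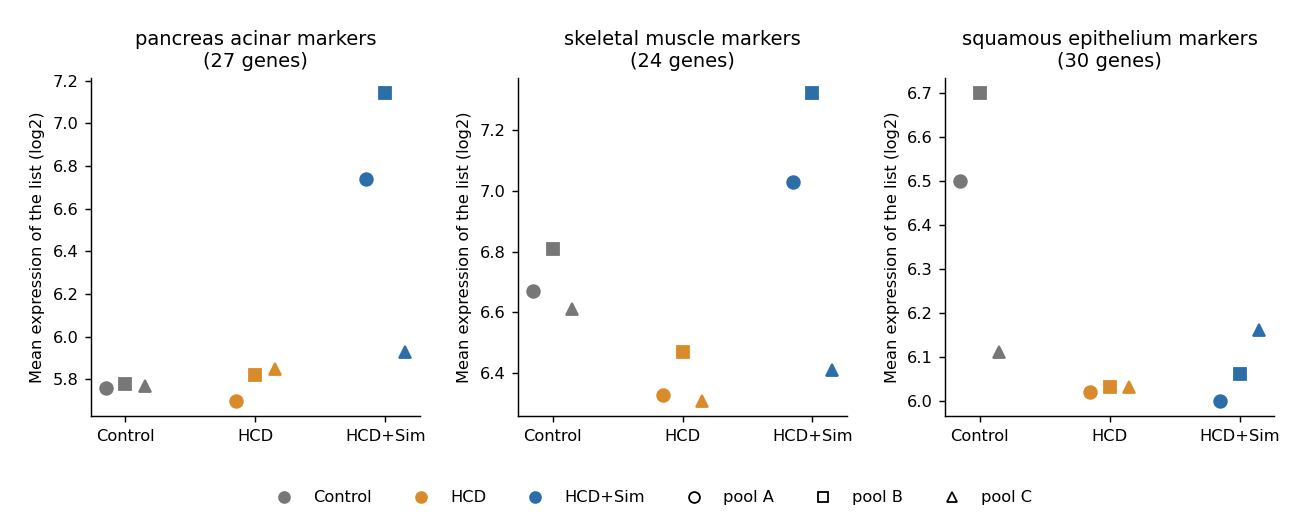
Mean log2 expression of pancreas acinar, skeletal muscle and squamous epithelium markers in each liver array of Control, HCD and HCD+Sim, with symbols for the pools. The vertical axes do not start at 0. Pools A and B of HCD+Sim were high in pancreas markers, at 6.74 and 7.14, and pools A and B of Control in squamous markers, at 6.50 and 6.70.

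A gene was counted as differentially expressed (DE) when its absolute log2 fold change (log2FC) exceeded 0.7 and its adjusted p did not exceed 0.05, with limma and the Benjamini-Hochberg adjustment over all genes. In HCD+Sim against Control, 48 genes were higher (0.217% of genes) and 31 lower (0.140%), so that 60.8% of DE genes were higher. After quantile normalization within liver this share was 51.4%. By adjusted p alone, 221 genes were higher (1.00%) and 120 lower (0.543%). The median log2FC of all genes was 0.02, 57.8% of them lay above the Control mean, and 11.8% had an unadjusted p under 0.05. The counts of list members given below are to be read against these shares. In 40 of the 48 higher and 25 of the 31 lower genes the arrays of the groups did not overlap, as in 13.2% of all genes. The 14 others included 6 pancreas markers and the squamous genes Krt4, Sprr3 and Defb4. The fit on the 15 liver arrays alone left 22 higher and 18 lower genes, and the fit on the 2 compared groups alone left 8 and 7. Leaving out Control pool B left 29 higher and 22 lower genes. With pool C as the only HCD+Sim array there were 69 higher and 67 lower genes, of which 20 and 22 were among the 79, and with pool C as the only Control array 39 and 13, of which 23 and 6 were. In these last fits a group has 1 array, which is assumed to vary like the arrays of the other groups, so their counts are no test of stability.

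Part of the cholesterol synthesis pathway was lower in HCD+Sim. Of 24 measured genes of the pathway, 8 were DE and lower and 0 DE and higher, from the steps after mevalonate (Pmvk, Idi1, Fdps) to the last steps of sterol synthesis (Dhcr7). By adjusted p alone 11 were lower, and 21 of the 24 lay below the Control mean. The median log2FC of the list was -0.27, against 0.02 for all genes.

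Cyp51, the lanosterol demethylase, had values of 7.12, 7.14 and 6.95 in HCD+Sim pools A, B and C and of 8.21, 8.56 and 7.96 in the Control pools. All HCD+Sim arrays lay below all Control arrays. Its log2FC was -1.17 (SE 0.11, adjusted p = 4.9e-09 with limma), a 2.25-fold lower level, and in HCD, at 7.60, 7.50 and 7.57, its log2FC against Control was -0.69. Nsdhl, a later enzyme of sterol synthesis, had 8.38, 8.50 and 8.00 against 9.50, 9.89 and 8.93. Again no array overlapped, and its log2FC was -1.15 (SE 0.16, adjusted p = 1.5e-05 with limma). HCD livers, at 9.12, 9.31 and 8.80, lay above all HCD+Sim arrays and overlapped Control.

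Fdps, the farnesyl diphosphate synthase, had 7.03, 7.40 and 6.94 in HCD+Sim and 8.32, 8.61 and 7.77 in Control. The groups did not overlap, and their closest arrays were HCD+Sim pool B and Control pool C. Its log2FC was -1.11 (SE 0.16, adjusted p = 3.4e-05 with limma). Dhcr7, which makes cholesterol from its last precursor, had 8.83, 9.10 and 8.52 against 9.90, 10.13 and 9.64, with a log2FC of -1.07 (SE 0.13). These groups did not overlap. Msmo1, a sterol methyl oxidase, had a log2FC of -0.92, Sqle, the squalene epoxidase, -0.84, Pmvk, the phosphomevalonate kinase, -0.72 and Idi1, the isopentenyl diphosphate isomerase, -0.71. In Idi1 the arrays of the groups overlapped, with 8.29 in HCD+Sim pool A and 8.27 in Control pool C.

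Hmgcs1, an early enzyme of the mevalonate pathway, passed the adjusted p alone (log2FC -0.49, adjusted p = 0.022 with limma), as did Lss (-0.44) and Tm7sf2 (-0.48). Insig1, which retains SREBP in the endoplasmic reticulum, had a log2FC of -0.36, and Srebf2, which encodes SREBP-2, of -0.21. Neither passed the adjusted p. Of the 18 genes of sterol sensing and uptake 0 were DE with limma, 6 had an unadjusted p under 0.05, and by adjusted p alone Soat1 and Soat2, which esterify cholesterol, were higher (0.32 and 0.30).

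**Figure D2:**
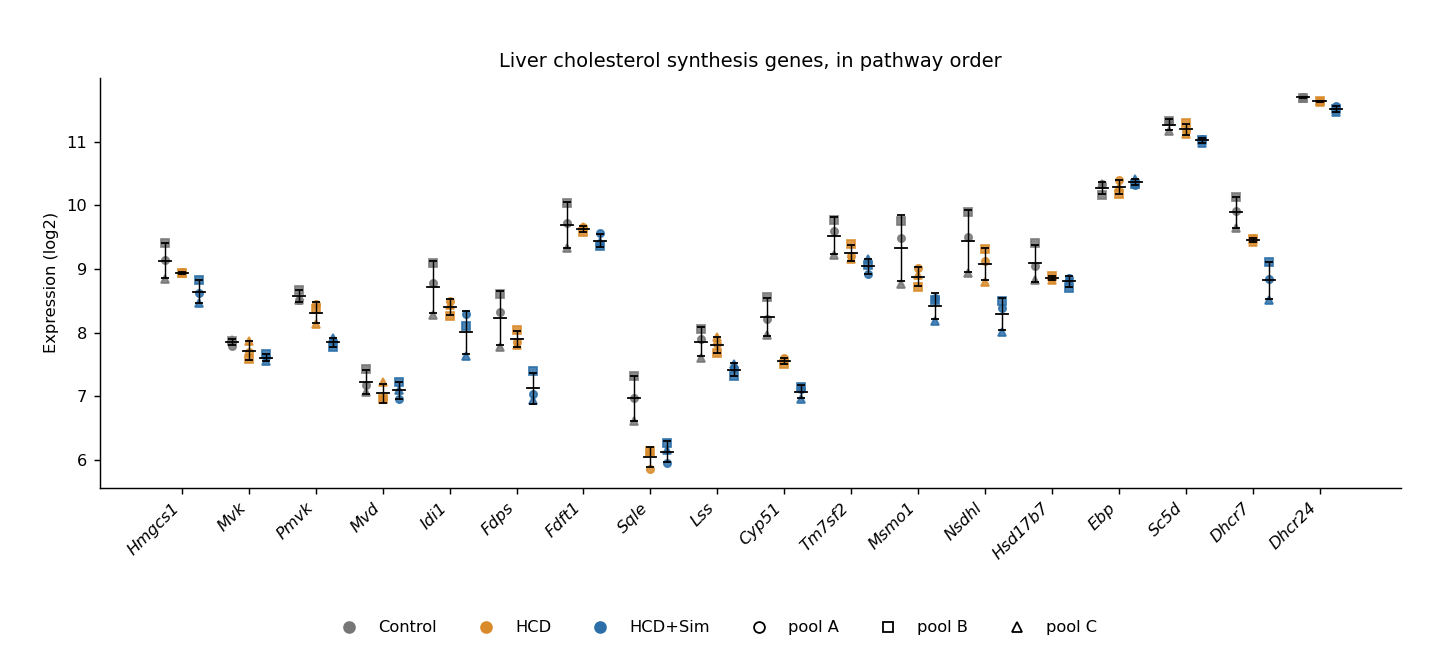
Log2 expression of 18 cholesterol synthesis genes in pathway order, for each liver array of Control, HCD and HCD+Sim. Bars show the mean and SD of 3 arrays. In Cyp51, Nsdhl, Fdps and Dhcr7 the HCD+Sim arrays lay below all Control arrays.

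The difference from HCD was smaller than that from Control for most of the 8 genes. In HCD+Sim against HCD, Fdps (log2FC -0.78) and Nsdhl (-0.78) were the only DE genes of the list, among 13 genes that were lower in that comparison (0.0589% of genes). Both calls were lost without HCD pool B (-0.70 and -0.67) and without HCD+Sim pool C (-0.69 and -0.64). Cyp51 (-0.49), Dhcr7 (-0.64) and Pmvk (-0.46) passed the adjusted p alone. In HCD against Control, Sqle was the only DE gene of the 24, at -0.92, among 31 genes that were lower (0.140%). Sqle had 5.86, 6.14 and 6.14 in HCD and 5.95, 6.27 and 6.16 in HCD+Sim, so both cholesterol-fed groups overlapped each other and lay below the Control values of 6.98, 7.31 and 6.61.

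Control pool B had the highest and Control pool C the lowest value of the group in Cyp51, Nsdhl, Fdps, Dhcr7, Msmo1, Sqle and Idi1. Without Control pool B, 5 of the 8 genes were DE, and Idi1 (-0.52), Sqle (-0.67) and Pmvk (-0.66) were not. Idi1 also lost its call without Control pool A (-0.67) and without HCD+Sim pool C (-0.52), and Pmvk without HCD+Sim pool B (-0.68). With pool C as the only HCD+Sim array 7 of the 8 were DE, and with pool C as the only Control array 2, where the spread of the lone array is taken from the other groups. The fit on the 15 liver arrays kept 7, all but Idi1, and the fit on the compared groups alone kept Cyp51 and Pmvk.

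The promoter table of RefSeq (build GRCm38.p6) held 22 windows for 19 of the 24 genes, of which the 250 bases before each start site were searched. The CCAAT box, the motif known to bind the factor NF-Y that works beside SREBP at sterol genes, was sought as CCAAT on either strand. It was present in 17 of the 22 windows (77.3%), in 17 of the 19 genes and in all 6 genes with a window among the 8 DE genes, against 33.8% of all 32851 windows. A letter match is a description and no binding site. TCACNCCAC, a form of the sterol regulatory element sought on either strand, was found in 1 window, that of Hmgcs1 (4.55% of the 22, against 1.05% of all). Other forms of the element were not sought, so a window without this match may still hold one. The windows of 3 DE genes with a single start site in the table are shown because these genes fell together, with CCAAT or its reverse complement ATTGG in capitals. They are Cyp51 at chr5:4104698-4104947 (minus strand), Nsdhl at chrX:72918271-72918520 (plus strand) and Msmo1 at chr8:64733579-64733828 (minus strand), each from 5′ to 3′.
Cyp51: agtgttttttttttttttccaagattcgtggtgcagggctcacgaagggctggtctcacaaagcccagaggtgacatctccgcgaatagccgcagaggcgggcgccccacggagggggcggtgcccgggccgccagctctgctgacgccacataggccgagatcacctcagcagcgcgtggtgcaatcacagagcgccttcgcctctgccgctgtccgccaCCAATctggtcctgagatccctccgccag
Nsdhl: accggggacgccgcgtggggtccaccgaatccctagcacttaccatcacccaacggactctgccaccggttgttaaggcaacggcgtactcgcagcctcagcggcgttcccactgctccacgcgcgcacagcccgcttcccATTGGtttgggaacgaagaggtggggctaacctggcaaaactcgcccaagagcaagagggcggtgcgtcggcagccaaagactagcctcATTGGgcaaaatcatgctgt
Msmo1: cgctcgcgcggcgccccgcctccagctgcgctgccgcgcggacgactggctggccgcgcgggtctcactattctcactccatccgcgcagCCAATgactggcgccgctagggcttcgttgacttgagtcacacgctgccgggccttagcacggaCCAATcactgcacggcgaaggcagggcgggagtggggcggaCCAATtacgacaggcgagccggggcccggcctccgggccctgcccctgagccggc
Cyp51 holds 1 such box, Nsdhl 2 and Msmo1 3.

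Genes listed for fatty acid and triglyceride synthesis were called in both directions. Srebf1, which encodes SREBP-1, rose, and 2 enzymes of the list fell. Of the 25 measured genes, 1 was DE and higher (Srebf1) and 2 DE and lower (Acacb and Acss2). By adjusted p alone 7 were lower. The median log2FC was -0.15 against Control, 0.17 in HCD against Control and -0.33 in HCD+Sim against HCD.

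Acacb, the acetyl-CoA carboxylase of the mitochondrial membrane, had 8.09, 8.23 and 7.65 in HCD+Sim and 9.09, 9.25 and 9.03 in Control. The groups did not overlap, and HCD, at 8.84, 9.01 and 8.55, lay nearer to Control. The log2FC was -1.13 against Control (SE 0.13, adjusted p = 2.2e-07 with limma) and -0.81 against HCD, where the call was lost without HCD+Sim pool C (-0.64). Acss2, which makes acetyl-CoA from acetate, had 9.25, 9.49 and 9.04 against 10.10, 10.42 and 9.89 in Control (log2FC -0.88, SE 0.11). Its HCD+Sim arrays lay below all Control arrays. The desaturases Fads1 (-0.67) and Fads2 (-0.48), the elongase Elovl5 (-0.57), ATP citrate lyase Acly (-0.56) and malic enzyme Me1 (-0.52) passed the adjusted p alone. G6pdx, the first enzyme of the pentose phosphate pathway, which supplies NADPH, was also DE and lower (log2FC -1.04, SE 0.18), with 7.38, 7.80 and 7.30 against 8.54, 8.95 and 8.12. No array of the groups overlapped, and in HCD its log2FC was -0.90. Its call was lost in the fit on the 15 liver arrays (adjusted p = 0.0507 with limma).

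Srebf1 had 10.27, 10.43 and 9.95 in HCD+Sim, 9.40, 9.32 and 9.78 in Control and 10.65, 10.67 and 10.61 in HCD. The HCD+Sim arrays lay between the other groups. Its log2FC was 0.72 against Control (SE 0.14, adjusted p = 0.0024 with limma), just over the fold threshold. The call was lost without Control pool A (0.67) or B (0.63) and without HCD+Sim pool A (0.69) or B (0.61). It was also lost in the fit on the 15 liver arrays (adjusted p = 0.226 with limma). With pool C as the only Control array the log2FC was 0.44, and with pool C as the only HCD+Sim array 0.45. Against HCD the log2FC was -0.42 (adjusted p = 0.17 with limma).

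Fasn, the fatty acid synthase, and Thrsp, a lipogenic nuclear protein, were DE in HCD but not in HCD+Sim. Fasn had 10.16, 10.58 and 9.42 in HCD+Sim, 10.29, 10.43 and 10.23 in Control and 11.19, 11.30 and 11.01 in HCD. The HCD arrays stood above the others, and HCD+Sim overlapped Control. The log2FC was 0.85 in HCD against Control, -0.27 in HCD+Sim against Control and -1.11 in HCD+Sim against HCD (adjusted p = 0.0015 with limma). Thrsp had 10.58, 11.05 and 9.60 in HCD+Sim, 10.41, 10.71 and 10.13 in Control and 11.50, 11.57 and 11.32 in HCD. Its log2FC in HCD+Sim against HCD was -1.06 and fell short of the call without HCD pool A (-1.04), HCD pool B (-1.0) or HCD+Sim pool C (-0.65). In both genes HCD+Sim pool C was the lowest array. With it as the only HCD+Sim array the log2FC of Fasn against Control was -0.90. Acly (-0.90), Lpin1 (-0.87), Elovl6 (-0.82), Acacb (-0.81) and Me1 (-0.78) were also DE and lower against HCD, which made 7 of the 25 genes. Elovl6 lost that call without HCD pool B (-0.67), and Me1 without HCD pool B (-0.64) or HCD+Sim pool C (-0.66). Scd1, the stearoyl-CoA desaturase, had a log2FC of -0.01 against Control, and Acaca, the other acetyl-CoA carboxylase, of -0.15. Neither was DE.

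Of 14 genes of sterol export and LXR, 1 was DE (Abcg5), 9 lay above the Control mean and the median log2FC was 0.11. Abcg5 and Abcg8 form the transporter that moves sterols into bile. Abcg5 had 11.02, 11.07 and 10.95 in HCD+Sim, 10.27, 10.18 and 10.41 in Control and 11.22, 11.23 and 11.16 in HCD. HCD+Sim lay above all Control arrays and below all HCD arrays, with a log2FC of 0.73 against Control (SE 0.11, adjusted p = 5.9e-05 with limma) and of -0.19 against HCD (adjusted p = 0.54 with limma). The call was lost without Control pool B (0.68). Abcg8, at 11.15, 11.16 and 11.11 against 10.47, 10.52 and 10.41, followed the same order and missed the fold threshold (log2FC 0.67, adjusted p = 4.0e-07 with limma). With pool C as the only Control array the log2FC was 0.60 for Abcg5 and 0.73 for Abcg8. Abcg1 passed the adjusted p alone (0.34).

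Lpl and Cd36, both chosen after their values were seen, were DE and higher. Lpl, the lipoprotein lipase, had 9.06, 8.96 and 9.01 in HCD+Sim and 8.23, 8.10 and 8.51 in Control (log2FC 0.73, SE 0.11). Cd36, a fatty acid transporter, had 8.85, 8.78 and 8.75 against 8.21, 8.00 and 7.97 (log2FC 0.73, SE 0.10). In both genes the groups did not overlap, and in HCD against Control the log2FC was 0.59 and 0.64. Pparg, a nuclear receptor that induces both, had a log2FC of 0.68 (adjusted p = 6.6e-06 with limma), which passed the fold threshold without Control pool C (0.74) or HCD+Sim pool C (0.72). The lipid droplet genes Plin4 (0.65) and Fitm1 (0.64) passed the adjusted p alone, among 16 genes of which 0 were DE and 4 had an unadjusted p under 0.05 with limma. Plin4 was DE without HCD+Sim pool B (0.72). Lpl lost its call without Control pool B (0.64), and Cd36 without Control pool C (0.68). With pool C as the only Control array the log2FC of Lpl was 0.50.

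The list of drug metabolism genes, targets of the nuclear receptors CAR and PXR, held the gene with the largest rise, Cyp2b9. Of 37 measured genes, 3 were DE and higher and 0 DE and lower, 8 were higher by adjusted p alone and 34 lay above the Control mean. The median log2FC was 0.28 against Control, 0.31 in HCD against Control and 0.01 in HCD+Sim against HCD. Cyp2b9, a cytochrome P450 with a sex bias in mouse liver, had 8.53, 7.47 and 8.52 in HCD+Sim and 5.28, 5.17 and 5.62 in Control. The groups lay far apart, with a 7.05-fold higher level (log2FC 2.82, SE 0.21, adjusted p = 1.3e-11 with limma). The Control values lay below 6, the level under which genes were counted as dim, so background may bound the size of this fold. HCD, at 8.71, 7.88 and 9.08, overlapped HCD+Sim, and pool B was the lowest of both cholesterol-fed groups.

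Cyp2a22 had 5.22, 4.82 and 6.15 in HCD+Sim and 3.84, 4.22 and 4.63 in Control, with a log2FC of 1.16 (SE 0.22) that was no longer called without HCD+Sim pool C (0.79). Its groups were separated by a narrow gap. Cyp3a41b, not in the list, had 9.59, 9.31 and 9.64 against 8.53, 8.38 and 7.66 (log2FC 1.32, SE 0.16). It shares nearly all its sequence with Cyp3a41a, so the signal may come from either gene. Cyp3a44 had a log2FC of 0.73 and an adjusted p of 0.042 with limma. Its call was lost without any of 5 of the 6 arrays (0.56 to 0.78), all but Control pool A. The calls of Cyp2a22 and Cyp3a44 were also lost in the fit on the 15 liver arrays (adjusted p = 0.0864 and 0.0794 with limma). Cyp3a11, a main drug-metabolizing P450, passed the adjusted p alone (0.57), as did the P450 reductase Por (0.62) and the haem synthesis enzyme Alas1 (0.36). Cyp2b10, the classical CAR target, had a log2FC of 0.43 (adjusted p = 0.16 with limma), against 0.86 in HCD.

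Abcc3, an efflux pump for bile acids and conjugated drugs on the blood side of the hepatocyte, had 10.98, 10.82 and 10.94 in HCD+Sim and 9.74, 9.69 and 9.67 in Control. The groups lay far apart, with little spread within each. The level was 2.32-fold higher (log2FC 1.21, SE 0.08, adjusted p = 1.8e-13 with limma), and HCD, at 10.87, 10.70 and 10.75, overlapped HCD+Sim. Abcc3 was the only DE gene among 26 genes of bile acid synthesis and transport, whose median log2FC was -0.02. Cyp7a1, the rate-limiting enzyme of bile acid synthesis, had 9.94, 10.05 and 9.41 against 9.29, 9.47 and 8.88, so that 1 HCD+Sim array overlapped Control. Its log2FC was 0.58 (adjusted p = 0.069 with limma) against 1.02 in HCD, and it was DE without HCD+Sim pool C (0.78). Cyp8b1, which sets the share of cholic acid, had a log2FC of -0.43 (adjusted p = 0.034 with limma), and Cyp7b1, of the alternative pathway, of -0.09.

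Apart from Cyp3a41b, the largest rises of genes in no list were in Gm10804 (log2FC 1.41, SE 0.13), Adam11 (1.35, SE 0.13), Gm10639 (1.23, SE 0.14) and Clec2h (1.08, SE 0.14). Adam11, a catalytically inactive member of the ADAM family, had 9.12, 8.94 and 9.02 against 7.61, 7.26 and 8.15, and Gm10639 had 9.29, 9.14 and 9.34 against 8.11, 7.51 and 8.44. In each of the 4 genes the HCD+Sim arrays lay above all Control arrays. The largest falls of genes in no list were in Cyp17a1 (log2FC -1.52, SE 0.19), a steroid hydroxylase, and Gpr110 (-1.23, SE 0.18), an adhesion G protein-coupled receptor. Cyp17a1 had 7.04, 7.17 and 6.51 against 8.62, 9.13 and 7.55, and HCD, at 7.41, 7.38 and 7.09, was likewise below Control. Gpr110 had 7.35, 7.18 and 7.49 against 8.75, 8.78 and 8.18. The groups did not overlap in either gene. With pool C as the only Control array the log2FC was -0.64 for Cyp17a1 and -0.84 for Gpr110. In the fit on the compared groups Cyp17a1 was not DE (adjusted p = 0.255 with limma), and Gpr110 was. Mir122, listed in the table for the liver microRNA miR-122, had 7.82, 6.63 and 6.89 against 8.39, 8.48 and 8.03 (log2FC -1.18, SE 0.23), a probe set signal that need not follow the mature microRNA. Its call was lost in the fit on the 15 liver arrays (adjusted p = 0.215 with limma), in that on the compared groups (0.253) and after quantile normalization within liver (0.199). Rdh11 (-0.96), Chrna4 (-0.94), Pdzk1ip1 (-0.78) and Itih5 (-0.73) also fell without overlap. Pdzk1ip1 lost its call without Control pool B (-0.62) or HCD+Sim pool A (-0.69).

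**Figure D3:**
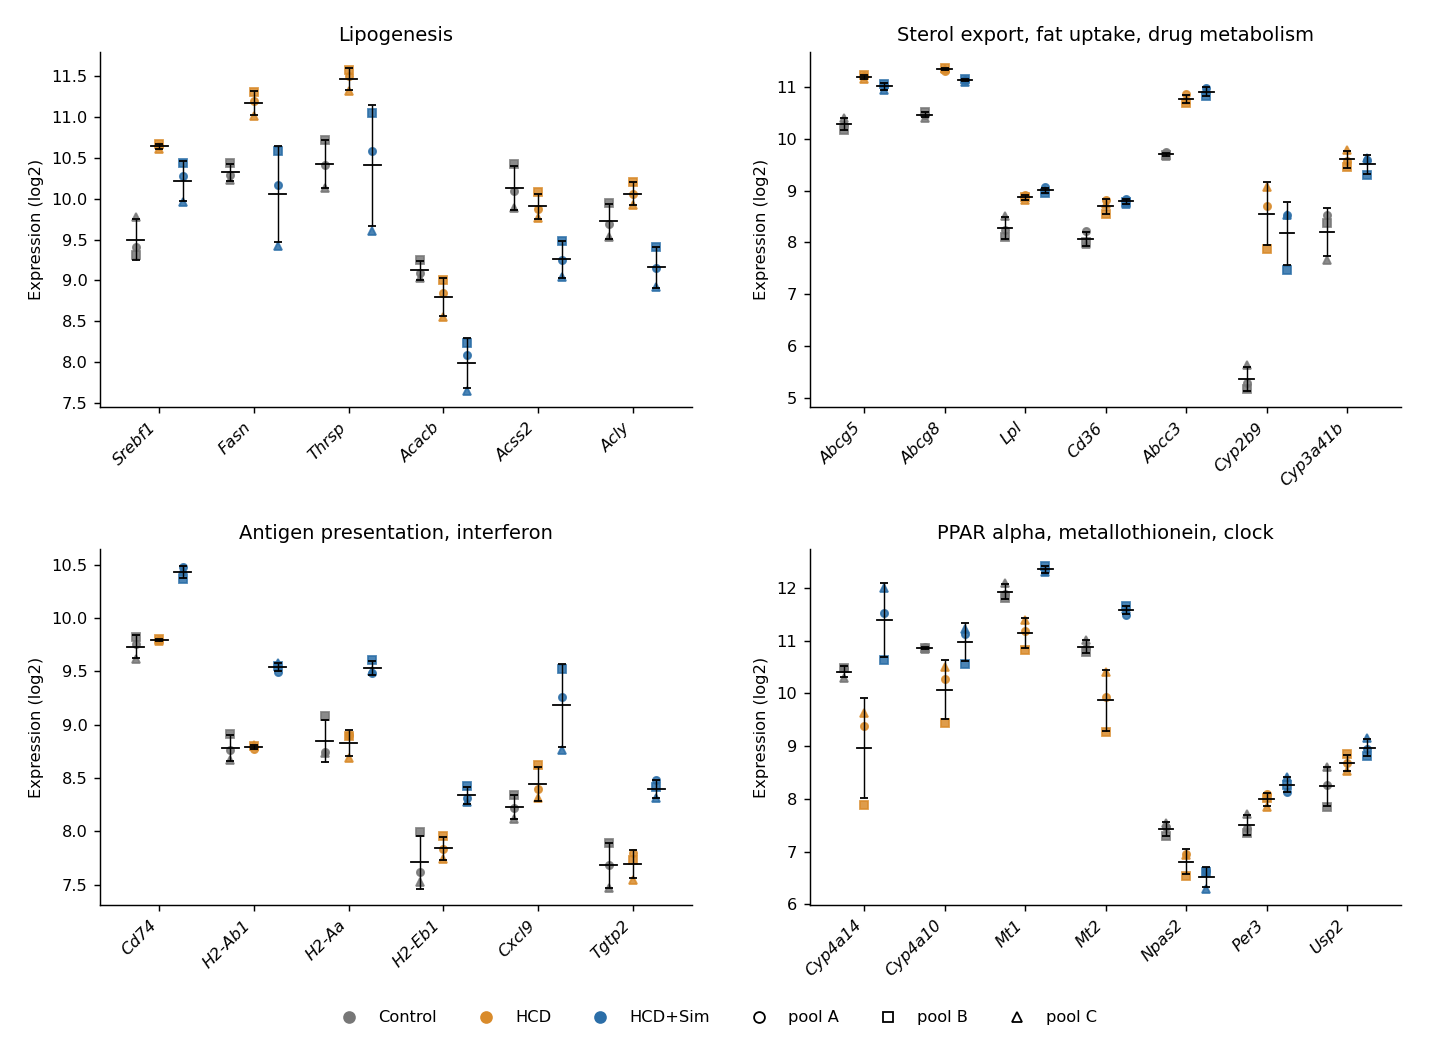
Log2 expression of genes of lipogenesis, sterol export and drug metabolism, antigen presentation, and PPAR alpha, metallothionein and clock genes in each liver array of Control, HCD and HCD+Sim. Bars show the mean and SD of 3 arrays, and vertical axes do not start at 0. HCD+Sim lay near HCD in Abcg5, Abcc3 and Cyp2b9, near Control in Fasn, and above both in Cd74 and H2-Ab1.

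None of the listed targets of PPAR alpha, the receptor that drives fatty acid oxidation, was DE between HCD+Sim and Control. Of 46 measured genes 0 were DE with limma, 12 had an unadjusted p under 0.05, 2 passed the adjusted p alone (Aldh3a2 at 0.65 and Acaa1b at 0.47), and the median log2FC was 0.07. In HCD against Control 4 of them were DE and lower, and in HCD+Sim against HCD 5 were DE and higher, among 44 genes that were higher (0.199% of genes). Cyp4a14, a fatty acid omega-hydroxylase, had 11.53, 10.63 and 12.00 in HCD+Sim, 10.48, 10.47 and 10.29 in Control and 9.38, 7.88 and 9.64 in HCD. Every HCD+Sim array lay above every array of the other groups. The log2FC was 2.42 against HCD (adjusted p = 3.0e-05 with limma) and 0.97 against Control (SE 0.33, adjusted p = 0.15 with limma), where it was DE without HCD+Sim pool B (1.35) and in the fit with the pool letter as a block (adjusted p = 0.013 with limma). Cyp4a10 (0.90), Cyp4a31 (0.98), Cyp4a32 (0.96) and Acot3 (0.89) were the other genes called against HCD. Cyp4a10, Cyp4a31 and Cyp4a32 are close copies whose signals cannot be fully told apart. All 3 lost the call without HCD pool B (0.58, 0.70 and 0.72) and without HCD+Sim pool C (0.78, 0.80 and 0.78). Cyp4a10 also lost it without HCD pool A (1.00) or HCD+Sim pool A (0.82), and Acot3 without HCD pool A (0.85) or B (0.80) or HCD+Sim pool A (0.75) or C (0.78). Ppara itself had a log2FC of 0.08 against Control.

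The metallothioneins Mt1 and Mt2, which bind zinc and copper, were low in HCD and high in HCD+Sim. Mt2 had 11.50, 11.65 and 11.60 in HCD+Sim, 10.85, 10.78 and 11.02 in Control and 9.93, 9.27 and 10.41 in HCD, so the 3 groups did not overlap. Its log2FC was -1.02 in HCD against Control, 1.72 in HCD+Sim against HCD (adjusted p = 8.8e-09 with limma) and 0.70 in HCD+Sim against Control (adjusted p = 0.014 with limma), a value just under the fold threshold. Mt2 was DE against Control without Control pool C (0.77) or HCD+Sim pool A (0.74). Mt1 had 12.32, 12.42 and 12.31 in HCD+Sim, 11.89, 11.81 and 12.10 in Control and 11.19, 10.83 and 11.40 in HCD. Its order was the same, with a log2FC of 1.21 against HCD and 0.42 against Control. Hamp2, a copy of the iron hormone hepcidin, fell to 9.04, 9.02 and 8.28 from 9.57, 9.83 and 9.44 (log2FC -0.83, SE 0.17), while HCD, at 9.74, 9.95 and 9.78, overlapped Control. The Hamp2 call was lost without Control pool B (-0.73) or HCD+Sim pool C (-0.58) and in the fit on the 15 liver arrays (adjusted p = 0.0525 with limma).

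Clock genes were called in both directions. Npas2, a close relative of CLOCK, fell to 6.63, 6.61 and 6.30 from 7.47, 7.29 and 7.55 (log2FC -0.92, SE 0.19). Arntl, which encodes BMAL1, passed the adjusted p alone (-0.64). Of 12 genes that peak in the opposite phase, 4 were DE and higher, 12 lay above the Control mean and the median log2FC was 0.51. Per3, a period gene, had 8.14, 8.25 and 8.42 against 7.44, 7.35 and 7.71 (log2FC 0.77, SE 0.10, adjusted p = 1.2e-06 with limma). Its groups did not overlap, nor did those of Usp2 (0.74), Bhlhe41 (0.93) and Ciart (0.74). In HCD against Control the median of these 12 genes was 0.36 and 0 were DE with limma, and in HCD+Sim against HCD it was 0.09. The hour at which each group was killed is not given in the sources used here, and its part in these values was not tested. Control pool B had the lowest Per3, Usp2 and Bhlhe41, and the 3 calls were lost without it (0.69, 0.54 and 0.62). With pool C as the only Control array the log2FC was 0.56, 0.37 and 0.36 for these genes and 0.86 for Ciart. Per3 and Usp2 lost theirs without HCD+Sim pool C (0.70 and 0.65), and Ciart without any of 5 of the 6 arrays (0.67 to 0.78), all but HCD+Sim pool B. In the fit on the 15 liver arrays Usp2, Bhlhe41 and Ciart lost their calls (adjusted p = 0.0994, 0.132 and 0.331 with limma), as they did after quantile normalization within liver, which left Per3 of the 4. Immediate early genes, which respond to handling and stress within minutes, had 24 of 24 members above the Control mean, against 57.8% of all genes, and a median log2FC of 0.29, with 0 DE with limma, 12 at an unadjusted p under 0.05 and Atf3 (0.57) past the adjusted p alone.

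Of 10 measured genes of antigen presentation and the interferon gamma response, 5 were DE and higher in HCD+Sim than in Control. The list was chosen after the values of its members were seen, so its count is a description. Cd74, the invariant chain of MHC class II, had 10.48, 10.37 and 10.45 in HCD+Sim, 9.76, 9.83 and 9.61 in Control and 9.80, 9.81 and 9.78 in HCD. HCD+Sim stood above both other groups, which overlapped. The log2FC was 0.70 (SE 0.08, adjusted p = 5.5e-07 with limma), just over the fold threshold, and the call was lost without Control pool C (0.64) or HCD+Sim pool A (0.68) or C (0.69). H2-Ab1, an MHC class II beta chain, had 9.49, 9.55 and 9.58 against 8.77, 8.91 and 8.67 in Control and 8.77, 8.80 and 8.81 in HCD. Its log2FC was 0.76 against Control (SE 0.08, adjusted p = 9.7e-08 with limma) and 0.75 against HCD. With pools A and B alone it was 0.69 against Control and below the fold threshold.

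The chemokine Cxcl9 (log2FC 0.95) and the GTPases Gbp11 (0.81) and Tgtp2 (0.72) were DE as well, and H2-Aa (0.68) and H2-Eb1 (0.63) passed the adjusted p alone. Both were DE without Control pool B (0.80 and 0.77), and H2-Aa without HCD+Sim pool A (0.71). In each of the 10 genes all HCD+Sim arrays lay above all Control arrays. Tgtp2 lost its call without Control pool C (0.61) or HCD+Sim pool A (0.68), and Gbp11 without Control pool B (0.84) or C (0.56) or HCD+Sim pool A (0.64) or B (0.84) and in the fit on the 15 liver arrays (adjusted p = 0.338 with limma). Cxcl9 had 9.26, 9.52 and 8.76, highest in the 2 pools with high pancreas markers, and with pool C as the only HCD+Sim array its log2FC was 0.53 and not DE. Against HCD, Cxcl9 (0.74), Tgtp2 (0.71) and H2-Aa (0.70) were DE beside H2-Ab1. Without HCD pool C these 3 calls were lost (0.67, 0.64 and 0.63), as were those of Cxcl9 without HCD+Sim pool A (0.70) or B (0.57), of Tgtp2 without HCD+Sim pool A (0.67) and of H2-Aa without HCD+Sim pool B (0.67). The 17 macrophage and Kupffer cell markers averaged 7.59 to 7.86 in HCD+Sim and 7.68 to 7.75 in Control, with a median log2FC of -0.01, and with limma 0 were DE and 0 had an unadjusted p under 0.05. In HCD they averaged 7.49 to 7.51, below every HCD+Sim array, and their median log2FC in HCD+Sim against HCD was 0.24. Like the 4 genes called against HCD, they were higher in HCD+Sim than in HCD, and their part in those calls was not tested. Within HCD+Sim their mean was lowest in pool C (7.59), where Cxcl9 was lowest and H2-Ab1 highest. The 16 lymphocyte markers averaged 5.79 to 6.06 and 5.82 to 5.91, with a median of 0.05, and with limma 0 were DE and 2 had an unadjusted p under 0.05. Of 21 general interferon response genes 0 were DE with limma and 6 had an unadjusted p under 0.05, and their median was 0.01.

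**Figure D4:**
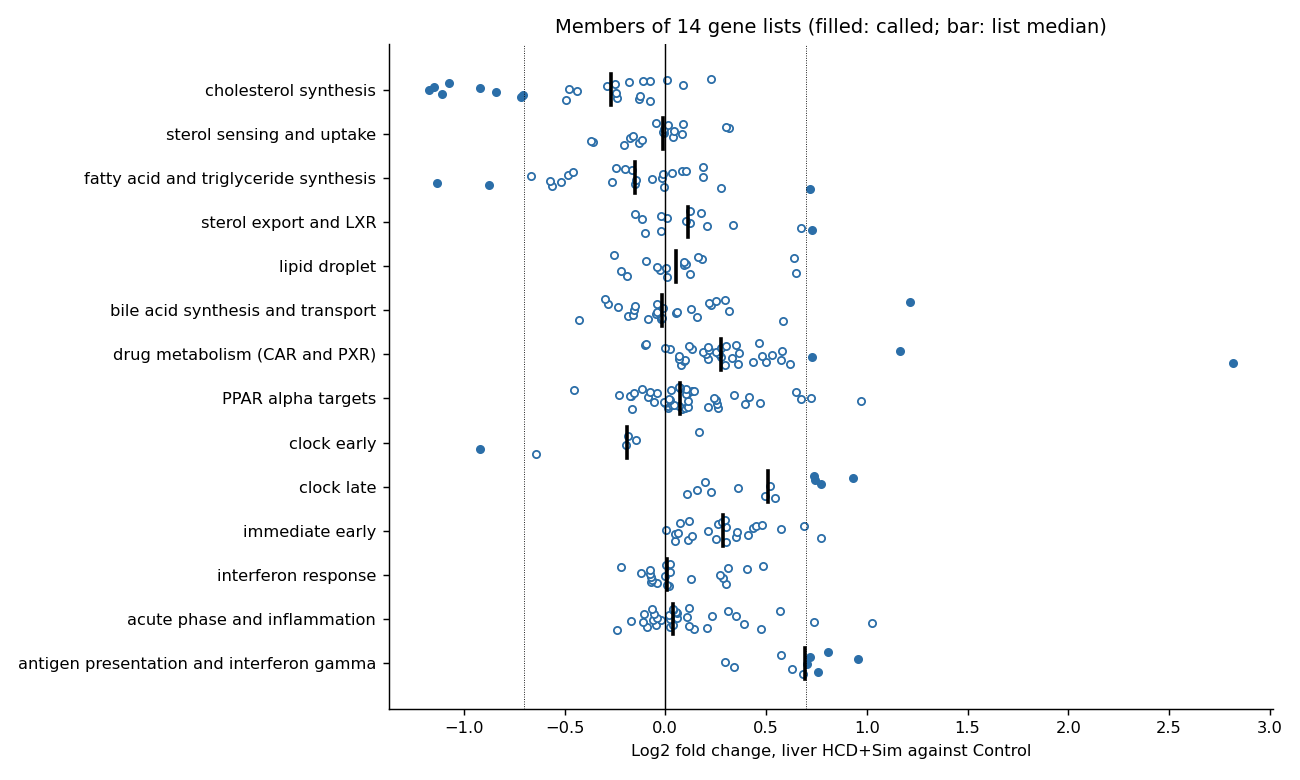
Log2FC of each measured member of 14 gene lists in liver HCD+Sim against Control, with filled points for DE genes, bars for list medians and dotted lines at the fold threshold. Cholesterol synthesis lay mostly below 0, with a median of -0.27, and late clock genes and antigen presentation above 0, with medians of 0.51 and 0.69.

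Other pathway lists held few DE genes. Derl3, of protein degradation in the endoplasmic reticulum, was the only DE gene of 25 ER stress genes, with 8.64, 8.57 and 8.60 in HCD+Sim and 7.86, 6.75 and 8.42 in Control. Its log2FC of 0.92 was 0.46 without Control pool B and 0.18 with pool C as the only Control array. Its call was lost without Control pool B, without HCD+Sim pool C (0.92) and in the fit on the 15 liver arrays (adjusted p = 0.382 with limma). G6pdx was the only DE gene of 19 antioxidant genes, and Cyp2b9 and Cyp3a44 were the 2 DE genes of 26 with a growth hormone or sex dependence. With limma 0 genes were DE among 33 acute phase, 14 heat shock, 20 glucose metabolism, 24 cell cycle and 18 fibrosis genes, and in that order 4, 1, 5, 1 and 1 of them had an unadjusted p under 0.05, against 11.8% of all genes. Of the markers of adipose tissue (10), stellate and endothelial cells (15), cholangiocytes (9) and blood cells (5), 0 were DE with limma, and 4, 1, 0 and 1 had an unadjusted p under 0.05.

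Of the 54 genes that were DE in liver HCD against Control, 23 higher (0.104% of genes) and 31 lower (0.140%), 24 were DE in the same direction in HCD+Sim against Control. They were 10 of the 23 higher and 14 of the 31 lower genes, 44.4% of the diet genes and 30.4% of the 79 genes of HCD+Sim against Control. The 14 included Krt4, Krt13, Krtdap, Sprr3, Defb4, Serpinb12 and the myosin gene Myh8. In these genes Control pool C lay below pools A and B, and in Krt4, Sprr3, Defb4, Serpinb12 and Myh8 within the range of HCD+Sim. Both comparisons share the Control arrays, so a Control array that stands apart enters both and the count is a description. By adjusted p alone, 35 of the 54 differed from Control in the same direction. With pool C as the only Control array 13 genes were DE in both comparisons, without Control pool B 11 and without Control pool C 44.

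Apart from Krt4, Krtdap, Defb4, Krt13 and Sprr3, which are described with the squamous markers, and from Cyp3a44 and Srebf1, which follow, the diet genes with an absolute log2FC over 1 in HCD that were also DE in HCD+Sim were Cyp2b9 (log2FC 3.20 in HCD and 2.82 in HCD+Sim), Fabp5 (-1.57 and -1.58), Cyp3a41b (1.42 and 1.32), Cyp17a1 (-1.14 and -1.52), Adam11 (1.16 and 1.35), Gpr110 (-1.14 and -1.23), Mir122 (-1.11 and -1.18), Gm10639 (1.1 and 1.23) and Abcc3 (1.07 and 1.21). In these 9 genes the log2FC of HCD+Sim against HCD lay between -0.38 and 0.19 and was not DE. Srebf1 (1.14 and 0.72) and Cyp3a44 (1.21 and 0.73), the 2 others, lay lower than HCD in every HCD+Sim array, with a log2FC against HCD of -0.42 and -0.48 that was not DE. A missed threshold does not show that the levels were equal. Fabp5, a fatty acid binding protein of skin and other tissues, had 7.69, 8.03 and 7.54 in HCD+Sim, 9.30, 9.38 and 9.32 in Control and 7.83, 8.01 and 7.46 in HCD. Unlike the other squamous genes it was as high in Control pool C as in pools A and B.

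The test of HCD+Sim against HCD called 8 of the 54. They were Fasn and Thrsp, which were higher in HCD than in Control, and Cyp4a14, Cyp4a31, Mt1, Mt2, Myh1 and Fgl1, which were lower. Myh1, a myosin of fast muscle, had a log2FC of 1.27 against HCD, and of 0.21 with pool C as the only HCD+Sim array. Its call was lost without HCD+Sim pool B (0.88). The 24 muscle markers averaged 6.61 to 6.81 in Control, 6.31 to 6.47 in HCD and 6.41 to 7.32 in HCD+Sim. Their part in the Myh1 values was not tested. In 7 of the 8 genes, all but Fgl1, the HCD+Sim mean lay on the other side of the Control mean from HCD. Fgl1, a secreted hepatocyte protein, had 11.36, 11.61 and 10.07 in HCD+Sim, 11.35, 11.29 and 11.20 in Control and 10.19, 10.38 and 10.00 in HCD, so pools A and B lay above HCD, and pool C lay within the range of HCD. Its log2FC against HCD was 0.82, and the call was lost without any array but HCD+Sim pool C (0.52 to 0.92). Moxd1, a monooxygenase-like protein with the largest diet effect in absolute terms after Cyp2b9 (log2FC -2.34), had a low pool C, with 9.84, 10.05 and 6.41 in HCD+Sim, 10.15, 10.00 and 10.31 in Control and 7.88, 7.59 and 7.96 in HCD. Its log2FC of -1.39 was not DE (adjusted p = 0.086 with limma), and pool C decided it, with -0.21 without HCD+Sim pool C (adjusted p = 0.80 with limma). It was DE without HCD+Sim pool A (-1.92) or B (-2.03).

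**Figure D5:**
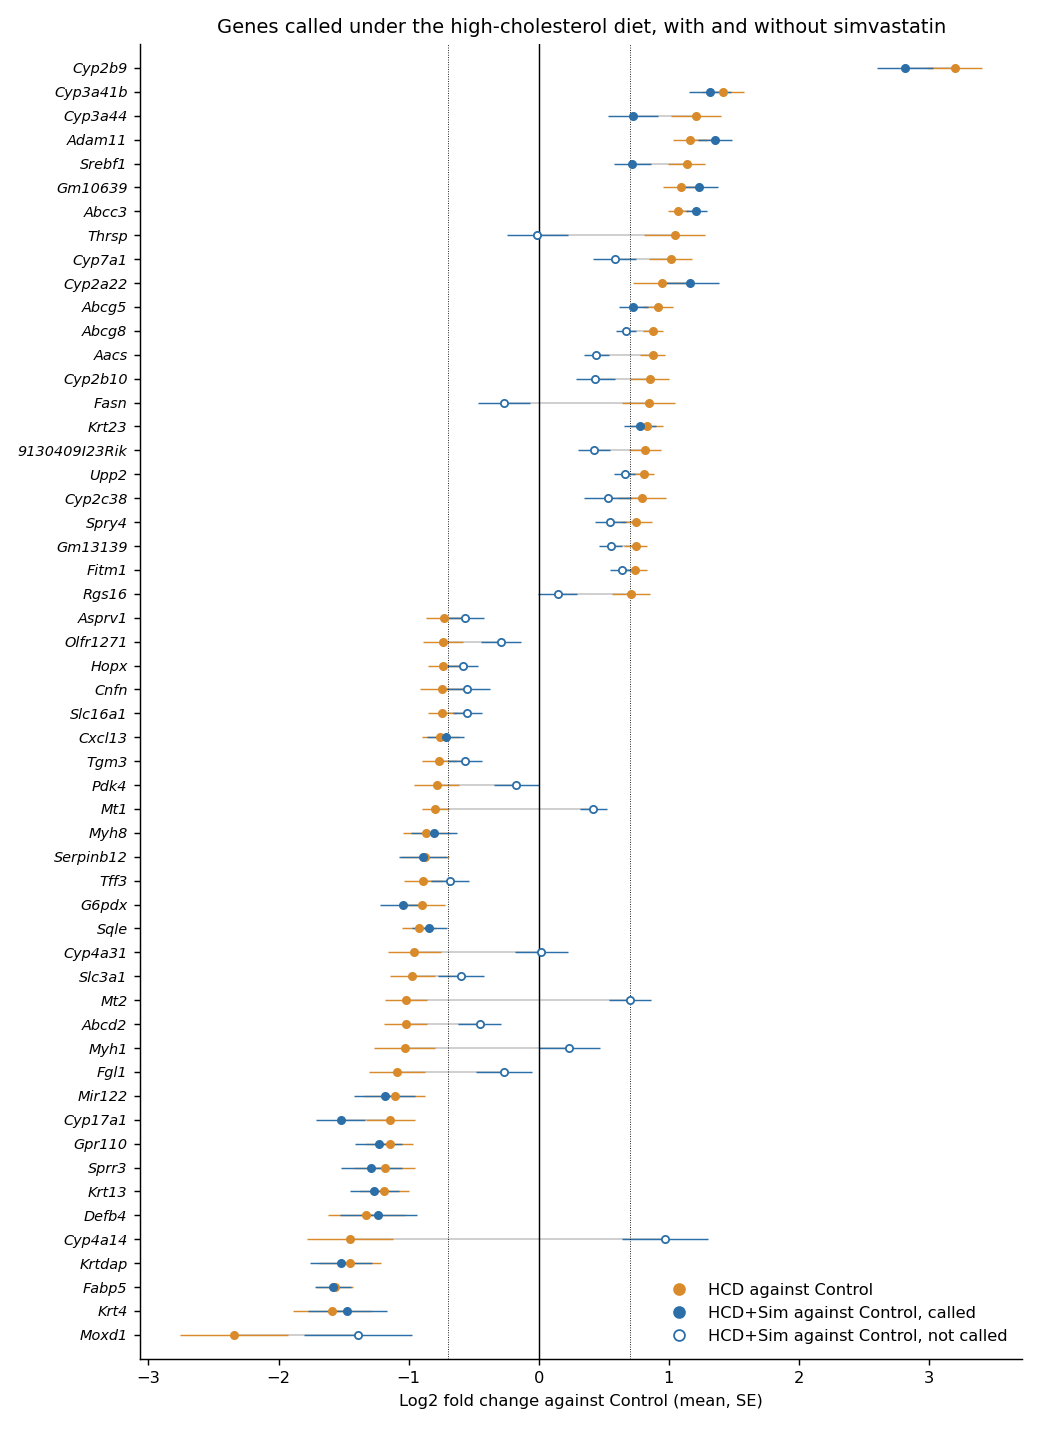
Log2FC against Control with its SE for the 54 genes that were DE in liver HCD, in HCD (orange) and in HCD+Sim (blue, filled where DE), with dotted lines at the fold threshold. The points of Cyp2b9 lie at 3.20 and 2.82, and the blue points of Fasn, Thrsp, Cyp4a14, Cyp4a31, Mt1, Mt2 and Myh1 lie across 0 from the orange ones.

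Pancreas enzymes made up 15 of the 48 higher genes. Of 27 measured acinar markers 15 were DE and higher and the median log2FC was 0.78. Amy2a5, a pancreatic amylase, had 9.34, 9.88 and 7.10 in HCD+Sim and 6.77, 6.57 and 6.88 in Control, and Ctrb1, a chymotrypsinogen, had 9.14, 9.69 and 6.95 against 6.61, 6.97 and 6.68. Pools A and B stood far above Control, and pool C near it. The fitted log2FC was 2.04 (SE 0.30) for Amy2a5 and 1.84 (SE 0.29) for Ctrb1, and with pool C as the only HCD+Sim array it was 0.36 and 0.19, neither of them DE. In that fit 0 of the 27 markers were DE with limma, and Cpb1 (-0.22), Cela2a (-0.11) and Clps (-0.10) changed sign. In the 15 DE markers pool C minus the mean of pools A and B was -2.54 to -0.219 log2 units. In bulk RNA, fewer cells of a type and less RNA per cell cannot be told apart. The fit on the 15 liver arrays kept 2 of the 15 calls, Prss2 and Zg16. Without HCD+Sim pool B 8 markers were DE.

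Muscle and squamous genes followed other arrays. Myh4, a fast myosin, had 6.58, 7.09 and 5.26 in HCD+Sim and 5.42, 5.22 and 5.77 in Control (log2FC 0.84, SE 0.21). It was the only DE gene of 24 muscle markers, and with pool C as the only HCD+Sim array its log2FC was -0.22. Its call was also lost without Control pool A (0.81) or B (0.71) and without HCD+Sim pool A (0.70) or B (0.45). Of 30 squamous markers 6 were DE and lower, namely Krt4, Krt13, Krtdap, Sprr3, Defb4 and Fabp5. Krt4, a keratin of the oesophagus and forestomach, had 5.75, 6.10 and 5.99 in HCD+Sim and 7.80, 8.63 and 5.82 in Control, so Control pool C lay within the range of HCD+Sim. The log2FC was -1.47 (SE 0.30), -0.86 without Control pool B, where the call was lost, and 0.13 with pool C as the only Control array. In that fit Fabp5 was the only DE marker of the 30. Defb4 lost its call without Control pool A (-0.99) or B (-0.74) and without HCD+Sim pool B (-1.11) or C (-1.05). In the fit on the 15 liver arrays Myh4, Krt4, Krtdap, Sprr3 and Defb4 were not DE (adjusted p = 0.0729 to 0.43 with limma), and Krt13 and Fabp5 were. The part of these tissues in the other results was not tested, and for cholesterol synthesis the calls with pool C alone are given above.

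The same contrast was made in kidney. In kidney HCD+Sim against Control 7 genes were DE (0.0317% of genes), 6 higher and 1 lower. The liver response minus the kidney response, tested in the same fit, was DE for 56 genes (0.254%), 39 of them among the 79 of liver. Cyp51 had a log2FC of -1.17 in liver and 0.05 in kidney (difference -1.23, adjusted p = 1.2e-05 with limma), and Abcc3 of 1.21 and -0.12 (difference 1.34, adjusted p = 4.6e-10 with limma). Cholesterol synthesis genes whose responses differed were Cyp51, Fdps, Nsdhl, Dhcr7, Sqle and Idi1. The only genes DE in the same direction in both tissues were Tgtp2, with a log2FC of 0.72 in liver and 0.79 in kidney, and BC023105. Gbp10, of the interferon-induced GTPases, was DE in kidney (0.70) and had a log2FC of 0.57 in liver.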

How the data were processed

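RNA of liver, kidney and brain had been measured on Affymetrix Mouse Gene ST arrays. Per the methods, the authors corrected intensities with RMA, quantile normalized them with oligo, applied ComBat to batches that are not named in the sources used here, kept 1 probe set per gene and deposited log2 values. These steps bear on levels, since ComBat can shrink or add differences between groups. The table holds 22080 genes, 13 with dates for names, which were tested but not named. Groups and pool letters were taken from the labels. All 45 arrays entered a single model of 15 group means in limma 3.58.1 under R 4.3.3 (prior degrees of freedom 7.34, residual 30), with Benjamini-Hochberg adjustment within each contrast, and DE thresholds followed the methods. Unless another fit is named, adjusted p-values come from it. The fit was also run on simulated data with independent noise and a single spread per gene. The model assumes both, so that run does not test them. An exact two-sided permutation test of 3 arrays against 3 cannot go below p = 0.1. The number of arrays limits the precision. Named genes were up to 15 non-overlapping DE genes in each direction with the largest change, DE members of 22 pathway and 12 marker lists, a set of 26 lipid and drug genes, and up to 12 diet genes with the largest change and those DE between HCD+Sim and HCD. Some genes and 1 list that the rule covers are not reported here. Abcg1, Acaa1b, Acaca, Acot3, Alas1, Aldh3a2, Arntl, Atf3, BC023105, Cd36, Cd74, Cxcl9, Cyp4a32, Elovl5, Elovl6, Fads1, Fads2, Fitm1, Gbp10, Gbp11, H2-Aa, H2-Ab1, H2-Eb1, Itih5, Lpin1, Lpl, Lss, Me1, Pdzk1ip1, Plin4, Por, Soat1, Soat2, Tgtp2, Tm7sf2 and the antigen presentation list were chosen after their values were seen. The members and lists were chosen with earlier results of these data known. Plots were made in Python 3.11.15 using matplotlib 3.10.9.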

Additional observations from a re-analysis of the deposited data

Results flagged for a closer look

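The liver and kidney responses to HCD+Sim were compared in the same fit, and 56 genes had a response that differed between the tissues. Below are the 39 of these that were DE in liver, each with the liver log2FC minus the kidney log2FC in brackets. The cholesterol synthesis genes were Cyp51 (-1.23), Dhcr7 (-0.94), Fdps (-1.14), Idi1 (-0.82), Nsdhl (-1.04) and Sqle (-0.90). The lipogenic and NADPH genes were Acacb (-1.07), Acss2 (-1.13) and G6pdx (-1.07). The pancreas acinar markers were 2210010C04Rik (1.81), Amy2a5 (2.13), Cel (1.24), Cpa1 (1.53), Ctrb1 (1.94), Ctrl (1.58), Pnlip (1.09), Prss2 (0.98), Reg1 (0.92), Rnase1 (1.69) and Zg16 (0.98), which were highest in HCD+Sim pools A and B. The squamous markers were Fabp5 (-1.69), Krt13 (-1.19) and Krtdap (-1.53), which apart from Fabp5 were highest in Control pools A and B. Higher in liver relative to kidney were also Abcc3 (1.34), Abcg5 (0.76), Adam11 (1.44), Clec2h (1.14), Cyp2b9 (2.81), Cyp3a41b (1.26), Gm10639 (1.47), Gm10804 (1.22), Krt23 (1.00), Plk3 (1.40) and Usp2 (0.72), and lower were Chrna4 (-0.82), Cxcl13 (-0.90), Cyp17a1 (-1.45), Itih5 (-0.87) and Rdh11 (-1.02). Leaving out kidney Control pool B reduced the 56 genes to 37. Single arrays were not screened within groups, since each group holds 3.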

How the results depend on the processing

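HCD+Sim against Control gave 48 higher and 31 lower DE genes, 24 diet genes were DE in the same direction, and 56 genes differed between liver and kidney. In that order the counts were 22, 18 and 10 in the fit on the 15 liver arrays, which could not give the kidney comparison because it needs kidney arrays. They were 8, 7, 5 and 23 in the fit on the compared groups only, and 19, 18 and 11 after quantile normalization within liver, which was not run for the kidney comparison. Without a fold threshold they were 221, 120, 112 and 87, and at a log2FC over 1 they were 18, 15, 14 and 32. With pools A and B only, the diet count was 39 and the kidney count 137, and the other counts moved by less than 1.5 times. Leaving out 1 array gave 29 to 59 higher, 22 to 45 lower, 11 to 44 shared with the diet and 37 to 77 against kidney. Chosen after seeing the data, pool C as the only HCD+Sim array gave 67 lower genes and 160 against kidney, and pool C as the only Control array 13 lower, 13 shared and 27 against kidney. With pool C as the only HCD+Sim array Cela2a (-0.11), Clps (-0.10), Cpb1 (-0.22), Myh4 (-0.22) and Myh1 (-0.82) changed sign, and with pool C as the only Control array Defb4 (0.24) and Krt4 (0.13) did. The dim gene filter, limma trend and limma robust kept these counts within 1.5 times. Of 69 named DE genes, 37 kept their call without each of the 6 arrays in turn.

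The pool letter does not pair the groups: deviations of same-letter arrays correlated at 0.093, 0.046 and 0.022, and pool C is a mix. With it as a replicate block there were 51 higher, 31 lower, 24 shared and 56 genes against kidney, and among the named genes the block changed the call of Cyp4a14 alone. The cause of these shifts was not tested. Probe sets near background, such as Defb4, Krtdap, Cyp2a22 and, in Control, Cyp2b9, bound what fold changes can show.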
